A study of Mus musculus with 6 samples.

Results

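Small nucleolar RNAs (snoRNAs), their Cajal body relatives (scaRNAs) and the small nucleolar RNA host genes were described in regulatory T cells (Treg) sorted from the thymus of NOD and C57BL/6 (B6) mice. The members are all rows of the deposited table whose symbol begins with Snora, Snord or Snhg followed by a digit or with Scarna, together with Gas5. There were 85 such rows among 32801, and 51 of them held at least 10 normalized counts in at least 3 of the 6 libraries and were tested. The tested members are 23 C/D box snoRNAs, 12 H/ACA box snoRNAs, 4 scaRNAs and 12 host genes. Total RNA of GFP-negative, CD4+CD8- and Thy1.1+ thymic cells was sequenced from mice aged 3 weeks, with 3 libraries of NOD, a strain that develops autoimmune diabetes, and 3 of B6, the strain of the reference genome. No treatment is recorded for either strain, and the labels state neither what GFP and Thy1.1 report, nor any transgene, nor whether a library is 1 animal or a pool. The p-values therefore measure the spread between these libraries, which may be technical.

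SnoRNAs are short, stable nucleolar RNAs. C/D box snoRNAs carry fibrillarin and place 2'-O-methyl groups on ribosomal RNA, H/ACA box snoRNAs carry dyskerin and turn uridine into pseudouridine, and scaRNAs guide the same changes on spliceosomal RNAs. A few C/D members, among them Snord118 (U8) and Snord13 (U13), act in the processing or acetylation of ribosomal RNA in place of methylation. In mammals most snoRNAs are cut out of introns, either of protein-coding genes of the translation machinery or of Snhg genes, whose spliced exons encode little or no protein and are often degraded in a translation-dependent way.

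The sequences below show C/D members that are set beside Snord13, the only member that passed the test between strains, and H/ACA and Cajal body members whose values are described further on. They were read from GENCODE M21 transcripts (build GRCm38, also called mm10) and are written 5′ to 3′ with T for U. In the C/D members capitals mark the first TGATGA (box C) and the last CTGA after it (box D). In the H/ACA members and Scarna13 capitals mark the last ACA within the final 10 bases. That mark was placed by position alone, and in Snora41 and Snora23 another ACA overlaps it, so it need not be the box itself.
Snord118: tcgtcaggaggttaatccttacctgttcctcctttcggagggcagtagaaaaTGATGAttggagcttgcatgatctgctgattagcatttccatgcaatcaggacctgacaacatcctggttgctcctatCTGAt
Snord104: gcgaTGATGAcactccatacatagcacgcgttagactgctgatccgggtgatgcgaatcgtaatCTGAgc
Snord17: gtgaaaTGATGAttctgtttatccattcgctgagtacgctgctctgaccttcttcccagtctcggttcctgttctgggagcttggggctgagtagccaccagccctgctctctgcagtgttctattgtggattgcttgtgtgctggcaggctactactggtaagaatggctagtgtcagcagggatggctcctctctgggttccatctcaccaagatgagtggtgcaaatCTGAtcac
Snora41: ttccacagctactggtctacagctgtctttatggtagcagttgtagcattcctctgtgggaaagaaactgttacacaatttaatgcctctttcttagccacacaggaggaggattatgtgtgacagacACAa
Snora23: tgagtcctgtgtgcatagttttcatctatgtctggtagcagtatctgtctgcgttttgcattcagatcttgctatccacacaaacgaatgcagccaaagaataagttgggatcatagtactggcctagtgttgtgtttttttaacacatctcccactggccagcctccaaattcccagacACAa
Scarna13: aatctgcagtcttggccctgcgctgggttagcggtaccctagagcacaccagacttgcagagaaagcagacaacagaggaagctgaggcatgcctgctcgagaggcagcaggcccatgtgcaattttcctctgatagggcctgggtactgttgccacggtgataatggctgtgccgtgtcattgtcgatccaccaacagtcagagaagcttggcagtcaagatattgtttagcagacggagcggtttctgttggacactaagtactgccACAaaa

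On mm10 these lie at chr11:69073427-69073561 (plus strand, Snord118), chr11:106500993-106501062 (plus, Snord104), chr2:144265979-144266216 (minus, Snord17), chr1:63179004-63179135 (plus, Snora41), chr7:110046364-110046547 (plus, Snora23) and chr12:105031075-105031349 (minus, Scarna13). The symbols were checked against these letters on the RNA strand. TGATGA followed by CTGA, without overlap, was present in 16 of 23 tested C/D members, 0 of 12 H/ACA members and 24.0% of 1507 annotated snoRNA transcripts. An ACA within the last 10 bases was present in 12 of 12 H/ACA members, 4 of 23 C/D members and 47.4% of annotated snoRNA transcripts. The tested C/D members had a median annotated length of 85 nt (range 65 to 238) and the H/ACA members 132 nt (128 to 196). The 19 C/D rows below the threshold had a median of 79 nt and none exceeded 111 nt. Of the 39 tested small RNAs, 33 lie inside an annotated gene on the same strand and 6 do not (Snord13, Snord118, Snord104, Snora17, Snora57 and Scarna2). The 32 whose host was itself tested were all intronic in every annotated transcript of that host.

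Normalized counts, taken here as read counts brought to a common depth by the authors and rounded, summed to between 16097369 and 17625903 per library. The estimated depth, from the gaps that rounding left, was 15.5 to 21.6 M reads (M, 10 to the power of 6). Libraries are named by the number in their column. NOD library 10 stood apart from the other NOD libraries in some small RNAs, and the results that turn on it are given with and without it. The Treg genes Foxp3, Il2ra, Ctla4, Ikzf2, Cd4 and Cd3e were present in every library, Foxp3 at 1701 to 2446 normalized counts. Of these, Cd3e was called higher in NOD (1598 to 2118 against 1051 to 1207). Cd4 (7248 to 7952 against 5825 to 6407) and Ctla4 (66497 to 70232 against 53515 to 60323) were also higher in every NOD library. Summed markers of B cells (48 to 100), erythroid cells (0 to 23), epithelial cells (167 to 314) and immature thymocytes (238 to 320) overlapped between strains, although Cd8a was called higher and Rag1 lower in NOD. Dntt, another immature thymocyte gene, was lower in every NOD library (8 to 17 against 25 to 34). In the B cell list Cd79a was higher (56 to 86 against 32 to 55) and Ms4a1 lower (0 to 4 against 6 to 10) in every NOD library. Summed dendritic cell markers ran from 163 to 206 in NOD against 245 to 402 in B6. In that list H2-Aa (31 to 66 against 72 to 176) and H2-Ab1 (42 to 57 against 77 to 110) did not overlap between strains. Xcr1 (56 to 99 against 84 to 94), Itgax (2 to 5 against 4 to 16) and Flt3 (4 to 7 against 5 to 9) overlapped. Macrophage markers ran from 18 to 36 against 43 to 82. Neither the dendritic cell sum nor the macrophage sum overlapped between strains. In the macrophage list Adgre1 (0 to 2 against 9 to 22) and C1qa (0 to 1 against 2 to 8) did not overlap, at low counts. Lyz2 (3 to 15 against 13 to 38) and Csf1r (15 to 19 against 14 to 25) overlapped. H2-Aa was the only one of the genes in these lists called, lower in NOD, and all were detected, with none of the 9 at 0 throughout.

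Snord13 (U13), which pairs with 18S ribosomal RNA and is required for its acetylation near the 3′ end, was the only one of the 51 members called between the strains. It stood at 96, 109 and 95 normalized counts in NOD libraries 2, 10 and 18 and at 28, 39 and 45 in B6 libraries 4, 12 and 20. Every NOD library lay above every B6 library, with 95 as the lowest NOD value and 45 as the highest B6 value. Mean levels were 100 ± 7.81 in NOD and 37.3 ± 8.62 in B6 (SD, n = 3 per strain). On the log2 scale NOD was higher by 1.42 ± 0.26 (SE), with a 95% interval of 0.85 to 1.99 (limma adjusted p = 0.0042). A gene was called when its adjusted p was below 0.05. Of all 16442 tested genes 9.89% were called, 4.59% higher and 5.30% lower in NOD, and the members' share was below that, with 1 of 51 called higher and 0 lower. The authors' deposited table gives 1.42 ± 0.41 for Snord13 with an adjusted p of 0.0093. The call was kept in each of 13 other settings, among them the omission of any single library (log2 fold change 1.23 to 1.57).

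The Snord13 gene has no annotated gene over it on either strand (mm10). No other annotated transcript matched it at 90% identity or more over 90% of its length. The nearest tested gene, Tti2, begins 348 bp away on the opposite strand and stood at 470 ± 49.2 in NOD and 461 ± 49.0 in B6 (log2 difference 0.03 ± 0.14, limma adjusted p = 0.94). Mak16, a ribosome assembly factor gene 9496 bp away, stood at 393 ± 44.4 and 477 ± 36.3 (-0.28 ± 0.14, adjusted p = 0.29). Rnf122, 18382 bp away, stood at 77.0 ± 21.7 and 61.3 ± 4.16 (0.29 ± 0.26, limma adjusted p = 0.62). Farther out, Fut10, a fucosyltransferase gene 37364 bp away, rose from 24 ± 6.08 in B6 to 111 ± 31.6 in NOD (2.16 ± 0.30, adjusted p = 0.00069). Reads were aligned to the B6 genome, and a sequence difference of NOD within these 104 bases cannot be told apart from a difference in level here. The dendritic cell and macrophage sums given above, lower in NOD, also separated the strains, and their part in the Snord13 result was not tested. Among the dendritic cell genes only H2-Aa and H2-Ab1 did not overlap between strains, and among the macrophage genes only Adgre1 and C1qa, both at low counts. For these genes too a sequence difference of NOD cannot be told apart from a difference in level.

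**Figure D1:**
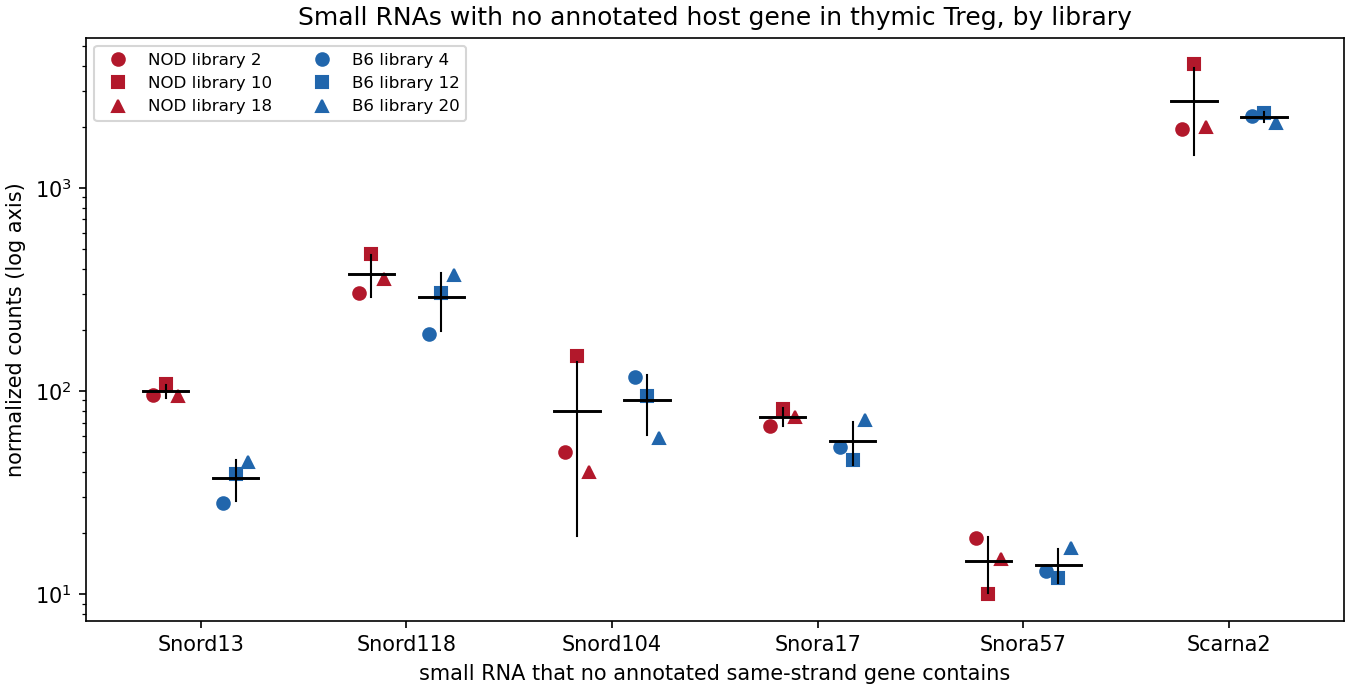
Normalized counts (log axis) of the 6 tested small RNAs that no annotated same-strand gene contains, 1 symbol per library, with the mean (horizontal line) and SD (vertical line, drawn no lower than 1) of 3 libraries per strain. For Snord13 the NOD libraries (95 to 109) lie above the B6 libraries (28 to 45), and for the other 5 the strains overlap.

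The other small RNAs outside annotated genes did not pass the test. Snord118, the U8 RNA needed for maturation of 5.8S and 28S ribosomal RNA, stood at 304, 474 and 357 normalized counts in NOD and 192, 305 and 374 in B6. The strains overlapped, and the log2 difference was 0.41 ± 0.24 (limma adjusted p = 0.41), its 95% interval reaching from -0.12 to 0.94. An annotated copy, Gm24208, matches it at 96.2% identity, so its reads could have been shared. Snord104 stood at 50, 149 and 40 in NOD against 117, 95 and 59 in B6 (-0.37, interval -1.34 to 0.60), with the NOD libraries both above and below all of B6. Its log2 difference was -0.94 without NOD library 10 (limma adjusted p = 0.096) and -0.0075 without NOD library 18, and neither passed the test. Snora17 stood at 67, 82 and 75 against 53, 46 and 72 (0.40 ± 0.25, adjusted p = 0.45), and it has 4 annotated copies at 90% identity or more. Snora57 was near the threshold, at 10 to 19 in NOD and 12 to 17 in B6, and has an annotated copy, Gm26132, at 95.9% identity.

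Among C/D members inside genes, Snord17 was by far the most abundant. This C/D guide RNA, in an intron of the sorting nexin gene Snx5, stood at 1645, 3785 and 1984 normalized counts in NOD and 1236, 2160 and 2602 in B6. Its log2 difference of 0.28 ± 0.31 did not pass the test (limma adjusted p = 0.71) and fell to -0.08 without NOD library 10 and to -0.04 without B6 library 4. Snord17 supplied 57.8% to 71.4% of the summed C/D normalized counts of a library. Per annotated length it reached 939 normalized counts per 100 nt, against 248 for Snord118, 157 for Snord85, 125 for Snord43 (in Rpl3) and 66 for Snord13. Snord43 read 110, 143 and 129 normalized counts in NOD against 99, 182 and 147 in B6 (-0.13 ± 0.24). Snord85 read 109, 107 and 133 against 64, 153 and 120 (0.13 ± 0.30), and both overlapped between strains.

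The remaining C/D members lay between 11.3 and 78.3 mean normalized counts. Their log2 differences ran from -0.77 (Snord58b, at 8, 19 and 10 in NOD and 22, 24 and 16 in B6) to 0.92 (Snord93, at 10, 25 and 15 against 6, 7 and 11). Both pairs of groups overlapped and neither passed the test, with -1.10 and 0.60 without NOD library 10. Over all 23 C/D members the median log2 difference was 0.11, 14 were positive, 1 was called higher and 0 lower by limma, and 1 had an unadjusted p under 0.05. Over all tested genes the median was 0.01, 51.9% were positive and 20.3% had an unadjusted p under 0.05.

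H/ACA members gave no call. Of 12, 9 had a positive log2 difference with a median of 0.26, and 1 had an unadjusted p under 0.05 by limma. The authors' deposited table also held 0 of the 12 below an adjusted p of 0.05, where it held 11.9% of all tested genes below it. Snora41, in an intron of the elongation factor gene Eef1b2, was the only one whose strains did not overlap and is named for that after its values were seen. It stood at 33, 20 and 33 normalized counts in NOD and 12, 14 and 19 in B6, a log2 difference of 0.88 ± 0.38 that did not pass the test (limma adjusted p = 0.22). An annotated copy, Gm23723, matches it at 97.7% identity.

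Snora69, in an intron of Rpl39 on chromosome X, had the widest H/ACA difference at 1.07 (95% interval -0.03 to 2.17), from 30, 29 and 17 in NOD against 5, 14 and 19 in B6. Snora31, in the translationally controlled tumor protein gene Tpt1, stood at 66, 49 and 89 against 50, 48 and 56 (0.36 ± 0.28). In each of these the lowest NOD library overlapped the B6 range. Snora30, in the chromatin remodeler gene Srcap, stood at 15 to 41 in NOD and 24 to 49 in B6 (-0.22 ± 0.43). It has an annotated copy, Gm25133, at 98.5% identity.

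Snora23, the most abundant H/ACA member, lies in an intron of the nuclear import receptor gene Ipo7. It stood at 123, 732 and 120 normalized counts in NOD and 160, 235 and 401 in B6. NOD library 10 alone exceeded every B6 library, and the other NOD libraries lay below all of B6. The log2 difference was -0.16 (95% interval -1.44 to 1.13) with all libraries and -1.02 without NOD library 10, and neither passed the test. The authors' deposited table has the opposite sign for Snora23 (0.29 ± 0.82, adjusted p = 0.92). Snora78, in the host gene Snhg9, showed the same library at the top, with 17, 132 and 41 in NOD and 30, 54 and 48 in B6, and its log2 difference was 0.09 with all libraries and -0.67 without that one. Both Snora78 and Snhg9 lie opposite Rps2, and since the counting is not stated to use strand, their reads and those of Rps2 cannot be told apart. Snora23, Snora57 and Snord8 also have an annotated gene opposite (1600010M07Rik, Lbhd1 and Gm26590).

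The 4 tested scaRNAs were well above most snoRNAs, at 303 to 2450 mean normalized counts and 432 to 612 per 100 nt of annotated length, which for Scarna9 is only 70 nt. Scarna2, which guides methylation of the U2 spliceosomal RNA, stood at 1952, 4063 and 1990 in NOD and 2270, 2337 and 2085 in B6. The log2 difference was 0.17 ± 0.23 with all libraries and -0.18 without NOD library 10. Scarna6, in the autophagy gene Atg16l1, stood at 924, 2206 and 994 against 500, 1065 and 1906 (0.33 ± 0.43), and it too changed sign without NOD library 10 (-0.07) or without B6 library 4 (-0.17). Scarna9, in Cep295, was steadier, at 256 to 366 in NOD and 248 to 359 in B6 (0.11 ± 0.19).

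Scarna13 (U93) stood at 2766, 1315 and 2187 normalized counts in NOD and 1109, 965 and 1759 in B6. NOD libraries 2 and 18 lay above all of B6 while NOD library 10 lay within it. The log2 difference was 0.69 ± 0.26 and did not pass the test (limma adjusted p = 0.16). Without NOD library 10 it was 0.99 ± 0.21 and passed (limma adjusted p = 0.012), while the adjusted p over the omission of each library ran from 0.012 to 0.46. Leaving out that library thus brought the scaRNA calls from 0 to 1, in a fit that called 763 of all tested genes higher and 1011 lower.

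**Figure D2:**
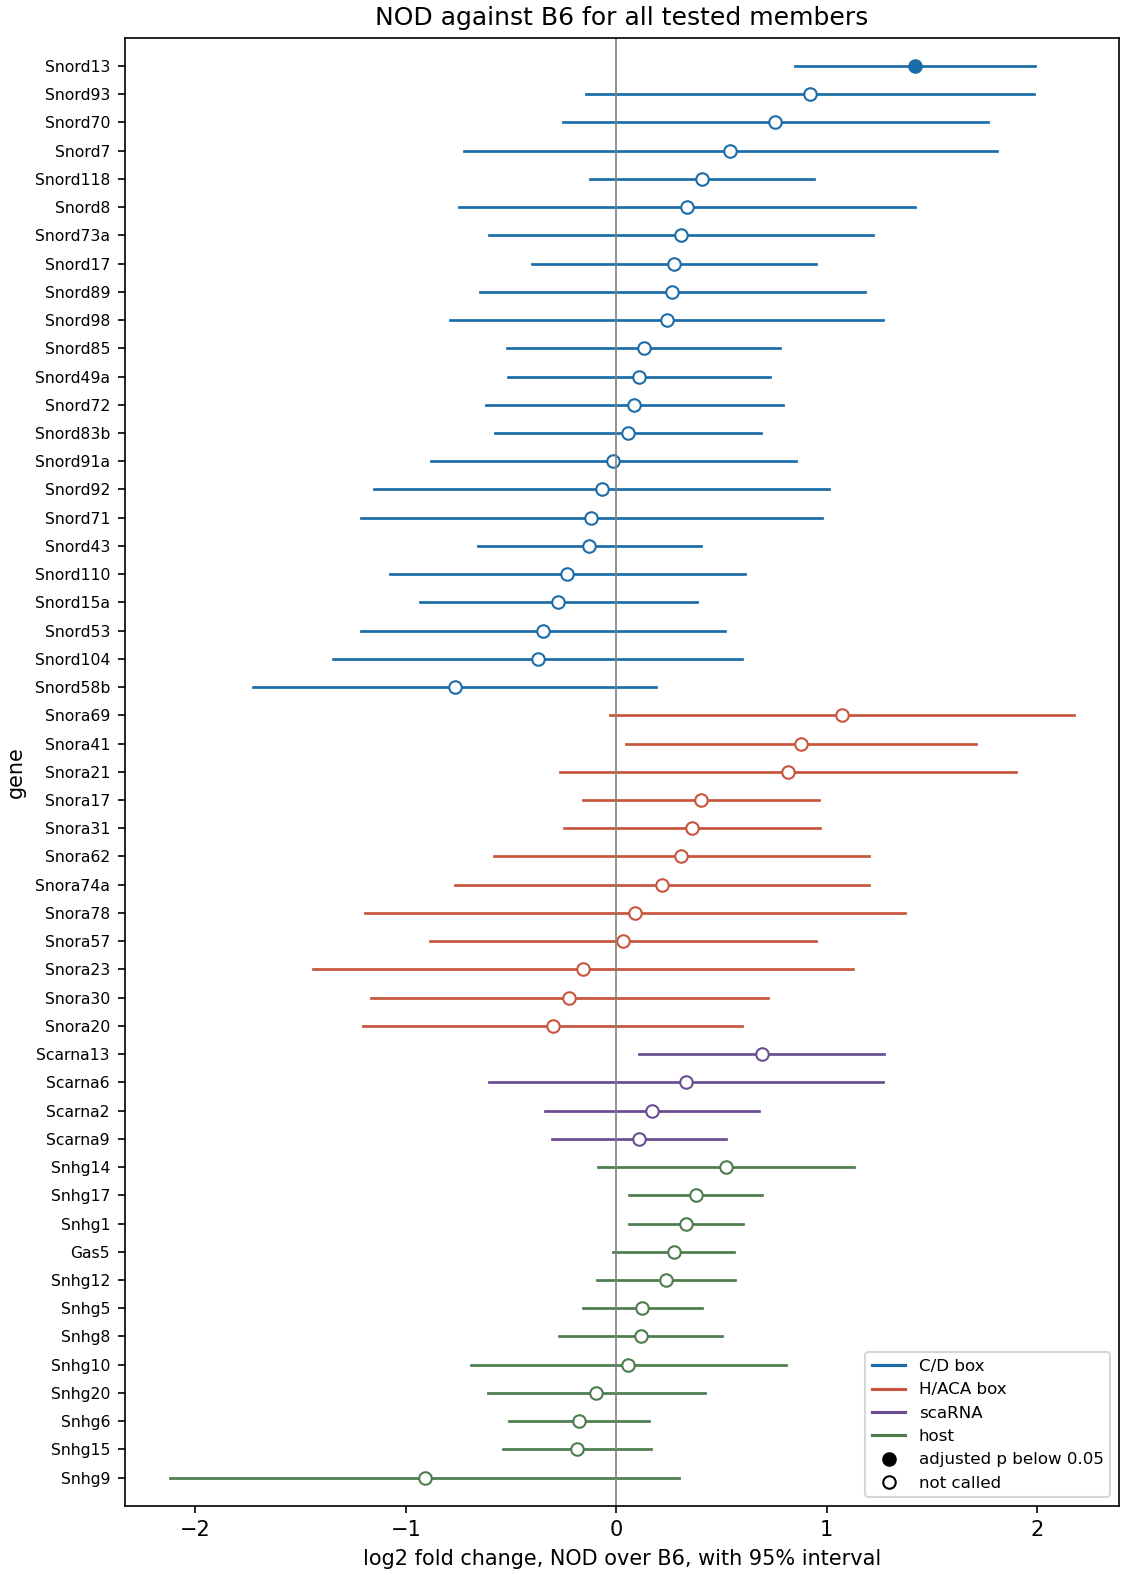
Log2 fold change of NOD over B6 for the 51 tested members, with limma's 95% interval (lines) and filled points where the adjusted p was below 0.05. Snord13 is the only filled point (1.42), and intervals of the snoRNAs are wider than those of most host genes.

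The host genes were measured more precisely than the small RNAs, and none was called. The median 95% interval reached 0.34 to either side among the 12 hosts, 0.90 among the 39 small RNAs and 0.45 over all tested genes. Gas5, the growth arrest-specific transcript that hosts a row of C/D snoRNAs, stood at 5483, 4626 and 4916 normalized counts in NOD and 3798, 3713 and 5005 in B6. B6 library 20 reached into the NOD range. The log2 difference was 0.27 ± 0.13 (limma adjusted p = 0.27), and without B6 library 20 it was 0.41 ± 0.11 (limma adjusted p = 0.0497). Over the omission of each library the limma adjusted p of Gas5 ran from 0.0497 to 0.61. Snhg1, host of the Snord22 group, stood at 1260, 1161 and 1172 against 853, 912 and 1108, with no overlap (0.33 ± 0.12, adjusted p = 0.14). Its adjusted p without B6 library 20 was 0.042, and over the omission of each library it ran from 0.042 to 0.44. The host calls therefore numbered 0 with all libraries and 2 of 12 without B6 library 20, where 781 of all tested genes were called higher and 778 lower.

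Snhg17 also separated the strains, at 649, 878 and 738 normalized counts in NOD and 570, 644 and 521 in B6 (0.38 ± 0.14, limma adjusted p = 0.15). Snhg6 was the only member lower in every NOD library, at 202, 212 and 216 against 230, 260 and 224, a small difference that did not pass the test (-0.18 ± 0.15). In all, 5 of 51 members did not overlap between strains (Snord13, Snora41, Snhg1, Snhg17 and Snhg6), where 24.1% of all tested genes did not. Snhg5 stood at 1568 ± 81.5 in NOD and 1449 ± 237 in B6, Snhg12 at 636 ± 59.4 and 543 ± 95.5, Snhg15 at 531 ± 72.8 and 607 ± 116, and Snhg8 at 580 ± 158 and 524 ± 41.4. Snhg14, the long imprinted transcript that carries the Snord115 and Snord116 clusters and runs antisense to Ube3a, was low at 101, 61 and 89 against 70, 58 and 45 (0.52 ± 0.28, adjusted p = 0.34). Snhg20 (-0.09 ± 0.23) and Snhg10 (0.06 ± 0.34) had differences near 0. Snhg9 was the lowest host, at 4, 18 and 7 in NOD and 20, 11 and 19 in B6. Over the 12 hosts the median log2 difference was 0.12, and 8 were positive.

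Small RNAs cut from introns were set beside their hosts in 32 pairs with 30 different host genes, 24 of them protein-coding. The median log2 difference was 0.12 for the residents and 0.07 for the hosts, and 16 of 32 pairs had the same sign. Pearson's r across the 32 pairs was 0.17 and Spearman's rho 0.33, a description only, since the pairs share the same 6 libraries, some share a host, and reads of unspliced host RNA count toward a resident. The host's value lay outside the resident's 95% interval in 3 pairs.

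Scarna13 was the first of these. It exceeded its host Snhg10 in every library, with 132, 43.8 and 72.9 resident counts per host count in NOD and 50.4, 29.2 and 76.5 in B6, and per 100 nt it stood at 612 against 5.01. Snord7, at 16, 19 and 6 normalized counts in NOD and 13, 4 and 10 in B6, lies in the noncoding transcript AA465934. That host fell in NOD, from 332, 302 and 396 in B6 to 114, 87 and 80 (-1.87 ± 0.19, limma adjusted p = 7.6e-05), while the resident's difference was 0.54 with an interval of -0.72 to 1.81. The remaining pair was Snord58b (-0.77) in the ribosomal protein gene Rpl17 (0.29 ± 0.14, adjusted p = 0.29). An annotated copy, Gm22354, matches Snord58b at 94.3% identity, so its reads could have been shared.

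A further pair of called hosts held members. The noncoding gene 2700038G22Rik, host of Snord93, rose from 33, 56 and 36 normalized counts in B6 to 103, 95 and 105 in NOD (1.29 ± 0.26, limma adjusted p = 0.0084), beside the 0.92 of Snord93 (interval -0.14 to 1.99). Snord93 has an annotated copy at 98.6% identity. Rpl3, a ribosomal protein gene that hosts Snord43 and Snord83b, fell from 20664, 24446 and 29261 in B6 to 17056, 17965 and 16689 in NOD (-0.51 ± 0.13, limma adjusted p = 0.032), beside -0.13 and 0.06 for its residents. The interval of each resident included its host's value, and a difference between resident and host was not tested.

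**Figure D3:**
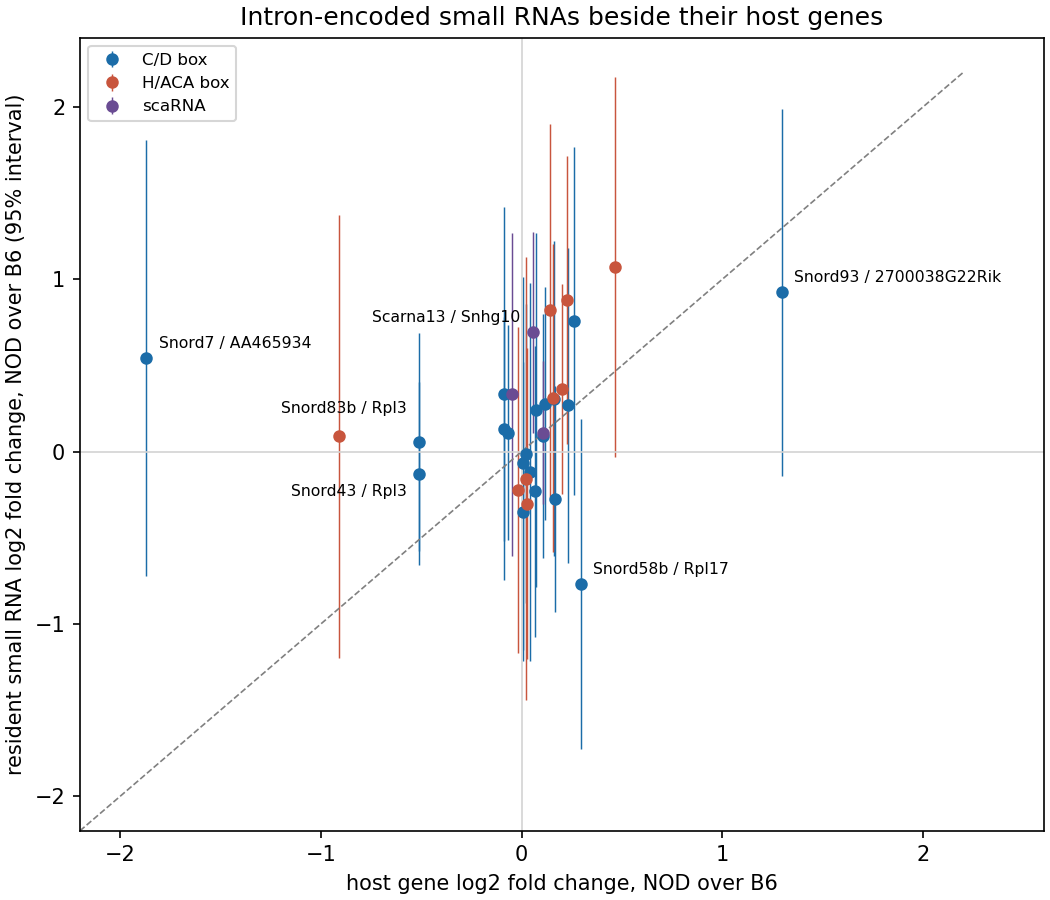
Log2 fold change (NOD over B6) of 32 intron-encoded small RNAs (vertical axis, with 95% intervals) against that of the host gene (horizontal axis); the dashed line marks equal values, and pairs with a called host or a host value outside the interval are named. Most hosts lie near 0, and AA465934 (-1.87) and 2700038G22Rik (1.29) lie farthest out.

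C/D members outweighed H/ACA members in every library, and a difference between the classes in their NOD to B6 comparison was not tested. Summed C/D normalized counts were 2791, 5302 and 3248 in NOD and 2137, 3414 and 3929 in B6, and summed H/ACA counts were 467, 1189 and 524 against 421, 555 and 741. The C/D sum was 4.46 to 6.20 times the H/ACA sum in NOD and 5.08 to 6.15 times in B6, so the ratio overlapped between strains. Without Snord17 the C/D sum was 1146, 1517 and 1264 in NOD and 901, 1254 and 1327 in B6. Without Snora23 the H/ACA sum was 344, 457 and 404 in NOD and 261, 320 and 340 in B6, and these no longer overlapped, by a margin of a few counts. Summed scaRNA counts (5490 to 7950 in NOD, 4146 to 6109 in B6) overlapped, and summed host counts (10518 to 11161 against 8796 to 10547) overlapped through B6 library 20.

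Spread between libraries of a strain was wider among the small RNAs than among the Snhg and Gas5 members. The median within-strain SD on the log2 scale was 0.47 for C/D members, 0.51 for H/ACA members, 0.47 for scaRNAs, 0.22 for the 12 Snhg and Gas5 members and 0.25 over all tested genes. NOD library 10 was the highest of the 6 for 15 of the 36 small RNAs with a single highest library (41.7%), and for 21.3% of all tested genes. It exceeded the mean of the other NOD libraries by 1 or more on the log2 scale for 8 small RNAs, led by Snora23 (2.58), Snora78 (2.27) and Snord104 (1.71). It was lower by 1 or more for Snord98 (-1.56) and Snord92 (-1.33). Its median deviation was 0.26 for C/D members, -0.17 for H/ACA members and 0.70 for scaRNAs, so it stood apart through single members rather than as a shift of every class. Without it 1 of 4 scaRNAs, 8 of 12 H/ACA members and 13 of 23 C/D members had a positive log2 difference, against 4, 9 and 14 with it. NOD library 2 had median deviations of -0.41 for C/D members, 0.04 for H/ACA members and -0.48 for scaRNAs. In B6, library 4 was low (median deviation -0.49 for C/D members, -0.50 for H/ACA members and -0.20 for scaRNAs). B6 library 20 was high (0.39, 0.33 and 0.62). The median over all tested genes was 0.01 in NOD library 2, 0.01 in B6 library 4 and 0.02 in B6 library 20.

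Annotated length did not order the small RNAs in NOD library 10, with a Spearman correlation of 0.13 between length and deviation across 39 small RNAs of the same libraries, given as a description. The same library held 913435 normalized counts of Rn7sk, the 7SK RNA that holds back transcription elongation, where the other 5 held 448457 to 578930. It held 146 of Terc, the telomerase RNA, which is built on an H/ACA scaffold, against 7 and 18 in the other NOD libraries and 50 to 98 in B6. Lars2, a mitochondrial leucyl-tRNA synthetase gene, stood at 318171 there and at 1381 to 13044 elsewhere. It was not high in every noncoding RNA looked at. For Malat1, an abundant nuclear RNA, it was the lowest library (143747 against 154179 to 199250), and for Rnu12, the U12 spliceosomal RNA, it shared the lowest value of 172 with B6 library 4. The part of these in the small RNA values was not tested.

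**Figure D4:**
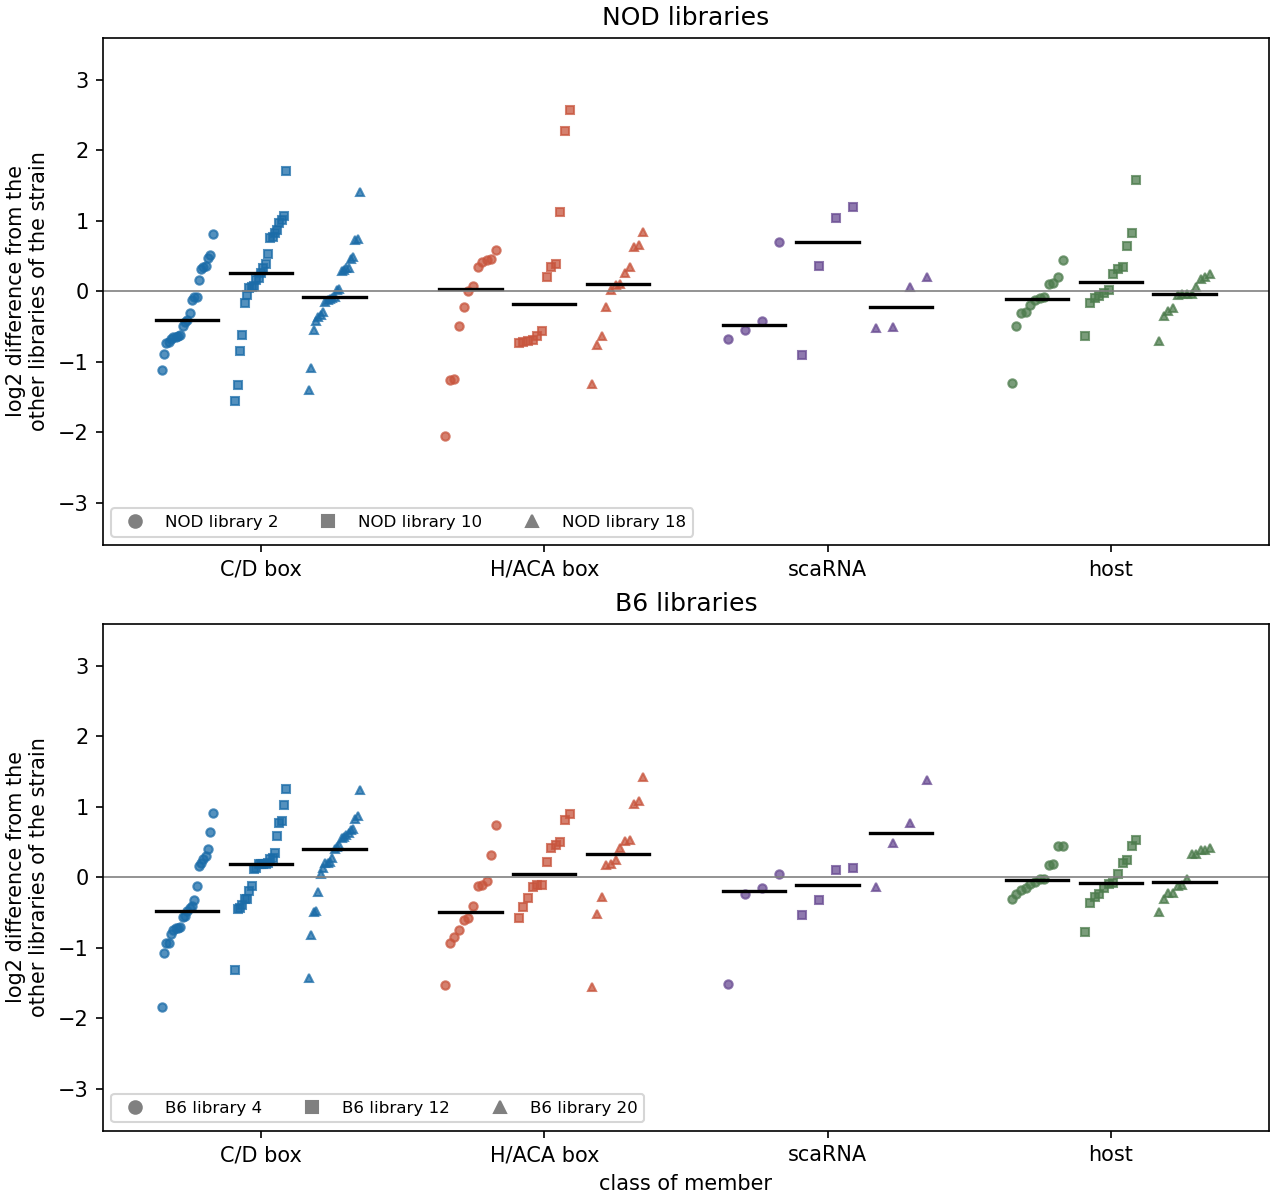
Difference on the log2 scale of each library from the mean of the other libraries of its strain, 1 symbol per member, by class, with medians as black lines. Host genes cluster near 0, and NOD library 10 holds the highest points, Snora23 (2.58) and Snora78 (2.27).

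Messenger RNAs of proteins that build, process and use these RNAs were looked at next. Of 43 genes listed for these steps, all tested, 2 rose and 0 fell, with a median log2 difference of 0.05. That is 4.65% called, against 9.89% of all tested genes (4.59% higher and 5.30% lower). Znhit6, a C/D assembly factor gene, had a difference of 0.47 (95% interval 0.01 to 0.93, limma adjusted p = 0.23) and was not called. Rpap3, a subunit of the R2TP chaperone complex that assembles snoRNA-protein particles, stood at 1718, 2747 and 2038 normalized counts in NOD and 1156, 1120 and 1142 in B6, a rise of 0.90 ± 0.15 (limma adjusted p = 0.0026). Xrn2, the nuclear 5′ to 3′ exonuclease that trims snoRNA ends, rose from 4396 ± 220 to 6006 ± 289 (0.45 ± 0.10, limma adjusted p = 0.012). Its call was lost in a fit without the trend of variance on level (adjusted p = 0.085).

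None of the 5 C/D core proteins was called, nor of the 4 H/ACA core proteins, which include dyskerin, or the 10 factors of nonsense-mediated decay, which degrades host transcripts such as Gas5. Their log2 differences ran from -0.31 to 0.26, from -0.18 to 0.40 and from -0.24 to 0.30.

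The 34 rows below the threshold comprised 19 C/D, 7 H/ACA, 4 scaRNA and 4 host rows, and 2 of them (Snord34 and Snhg18) were listed at 0 in all libraries. The highest single value among them was 19 normalized counts, in Snord23. Just inside the threshold stood Snord93 and Snord70, each with a third-highest value of 11, and just outside stood Snord23 with 9. Snord11, which shares the host Nop58 with Snord70, stood at 8, 9 and 8 in NOD and 1, 3 and 2 in B6 and was named after its values were seen. It was too low to be tested. In these bulk samples fewer cells with a small RNA and less of it per cell cannot be told apart.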

How the data were processed

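RNA of 6 libraries (3 NOD, 3 B6) was measured in 1 deposited table. Trimmomatic, STAR, DESeq2 and mm10 are named per the submitters' processing notes; counter, annotation, strand setting and versions: not given in the sources used here. TruSeq total RNA libraries are made from fragmented RNA, and short RNAs are captured unevenly. Per the file headers, the sample columns hold the authors' scores, read counts divided by size factors and rounded, and the other deposited columns hold DESeq2's mean and statistic (scores), log2 fold change and standard error (log2), and p-value and adjusted p-value. Columns name the strain but carry other numbers than the labels' replicates, so libraries are named by column number; 0 sample columns were left unused.

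Every row reaching 10 normalized counts in 3 or more columns (2 when a library was left out) were fitted with limma 3.58.1 in R 4.3.3 on log2(value + 1), strain as the only term, with a variance trend, two-sided, Benjamini-Hochberg adjusted over 16442 genes, called below 0.05. Fold changes on this scale understate the change of low genes. The fit and the depth estimate were tested on simulated data. Coordinates, hosts and sequences come from GENCODE M21 (GRCm38), matched by symbol (84 of 85 rows at a single locus); copies were searched with blastn 2.17.0 at 90% identity over 90% of the length. Other pseudocounts (0.5 and 8), filters, scalings, no trend, and each library left out were tried. Members, lists and classes were chosen with earlier results of these data known. Named were called members, the 5 most abundant of each class, separated members with a log2 difference of at least 1, called pathway genes, and hosts and residents of these; other members and the genes Rn7sk, Terc and Lars2 were named after their values were seen. The sequence of Snord13 and the host gene of Snord85 are not reported here.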

Additional observations from a re-analysis of the deposited data

How the results depend on the processing

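Snord13 kept its direction and call in 13 of 13 alternatives (log2 fold change 1.23 to 1.57, limma adjusted p 0.0035 to 0.023). Over the omission of each library, C/D calls stayed at 1 higher and 0 lower and H/ACA calls at 0 and 0; scaRNA calls ran from 0 to 1 higher, host calls from 0 to 2 higher, and pathway calls from 2 to 3 higher. All tested genes ran from 490 to 781 higher (490 without NOD library 18) and from 569 to 1011 lower (569 without B6 library 4), against 755 and 871 with all libraries. The pathway list held 1 higher gene without the variance trend.

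Among values that never passed the test, signs changed only when a library was left out. Log2 differences then ran from -0.079 to 0.52 for Snord17, -0.37 to 0.069 for Snord43, -0.23 to 0.40 for Snord85, -1.02 to 0.28 for Snora23, -0.67 to 0.77 for Snora78, -0.50 to 0.19 for Snora30, -0.18 to 0.35 for Scarna2, -0.17 to 0.79 for Scarna6 and -0.0089 to 0.27 for Scarna9; the cause was not tested. Scaling to equal totals shifted the median of all genes by -0.04. No paired analysis was possible because the columns carry other numbers than the labels' replicates and no source says which libraries belong together. Values without NOD library 10 for members outside the naming rule were added after seeing the data.

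Low values limit the precision: most snoRNAs lie under 60 normalized counts, and a difference missed at that level was not shown to be absent.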
